A study of Arabidopsis thaliana with 3 samples.

Results

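Cytochrome P450 genes were followed in the root transcriptome of Arabidopsis thaliana. They were taken from the deposited root table by name, as every entry of the form CYP, a family number, a subfamily letter and a gene number, with a fixed set of 20 well-studied P450 genes left out. This gave 220 of the 33446 listed genes. The plants were Col-0. The study's INTACT line carries a transgene for a tagged nuclear envelope protein driven by the constitutive 35S promoter. The paper's RNA methods do not say whether the roots came from this line. No treatment is named. Roots were taken from vertical plates at an age of 14 days in long days, and RNA was sequenced from 3 libraries of this single condition. The table holds a single column of RPKM, the reads on a gene scaled by its length and by the size of the library, so levels can be compared between genes but no replicate, control or second condition can be set beside them. Every level below is therefore a description without a test, and in whole roots fewer cells of a type and less RNA per cell cannot be told apart.

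P450 enzymes are haem proteins that split molecular oxygen, placing a single oxygen atom in a substrate. The haem iron is held by the sulphur of a conserved cysteine, and in most plant P450s, which sit in the membrane of the endoplasmic reticulum, the electrons come from a P450 reductase. Plants use them in nearly every branch of metabolism, from sterols and hormones to surface lipids and defence compounds. They are named by family number, then by subfamily letter, and families are grouped in larger clans by descent.

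Each of the 220 names has an entry in the TAIR10.1 annotation (214 by symbol, 6 by synonym). Of these genes 208 are annotated as protein-coding and 12 as pseudogenes. The spacing of the low values was best fitted by whole reads of a single set of about 118 M reads. This set may be the pooled libraries or 1 of them. Of 4342 low values, 64.6% lay within 0.05 of a whole read, against 10% for an unrelated constant. The size of the set was chosen to make this share largest on the same values, whereas the 10% is for a constant not chosen so. At this estimate 1 RPKM corresponded to about 217 reads for a gene of the median exon length of 1832.5 bp, a counting error of 6.79%. The largest counting error among the 25 highest genes was 1.56%. These errors, and all intervals below, cover counting only and not the variation between plants. As a check of the tissue, all 13 listed root markers were above 1 RPKM, from 2.63 to 203, with a median of 14.9. Of the 9 listed leaf markers 5 were above 1 RPKM, from 0.00982 to 17.3 over all 9, with a median of 2.12.

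More than 1 RPKM, the level at which the study calls a gene expressed, was found for 115 of the 220 P450 genes, or 52.3% (95% Wilson interval 45.7 to 58.8). The share was 56.0% over all listed genes and 68.4% over listed protein-coding genes, and the 208 protein-coding P450 genes gave 54.8%. Above 10 RPKM stood 47 P450 genes (21.4%), against 28.8% of all listed and 35.5% of protein-coding genes. At the other end 27 P450 genes (12.3%) were listed at 0, against 21.0% of all listed and 10.3% of protein-coding genes, and 78 (35.5%) lay above 0 and at most at 1 RPKM, against 23.0% and 21.3%. For the 27 genes listed at 0, the limit that a count of 0 allows (3 reads) ran from 0.00841 to 0.231 RPKM, with a median of 0.0161. Another 31 P450 genes rested on 1 to 10 reads.

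The choice of genes bears on these shares. Of the 20 genes left out, 19 are listed under a CYP name, and 18 of these 19 were above 1 RPKM, with a median of 36.6 RPKM. With them put back, 133 of 239 genes (55.6%) were above 1 RPKM. A further 24 listed genes are annotated as P450 proteins but carry another symbol, and 13 of them were above 1 RPKM.

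The median of the 220 genes was 1.41 RPKM, with quartiles of 0.0407 and 8.09, against 2.21 over all listed genes and 4.86 over protein-coding genes. Together they summed to 1691 RPKM, 0.278% of the table. This sum was spread unevenly: 16 genes held 50% of it and 67 genes held 90%, and the 10 highest held 41.3%. The genes nearest to the 1 RPKM level were CYP77B1 (1.18), CYP85A1 (1.09) and CYP78A9 (1.02) above it and CYP71B3 (0.966), CYP77A4 (0.905) and CYP710A4 (0.771) below it. For CYP85A1, CYP78A9, CYP71B3 and CYP77A4, on about 265, 232, 215 and 190 reads, the 95% Poisson interval included 1 RPKM, so the side they took is within counting error, and no other gene of the 220 was in this position.

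**Figure D1:**
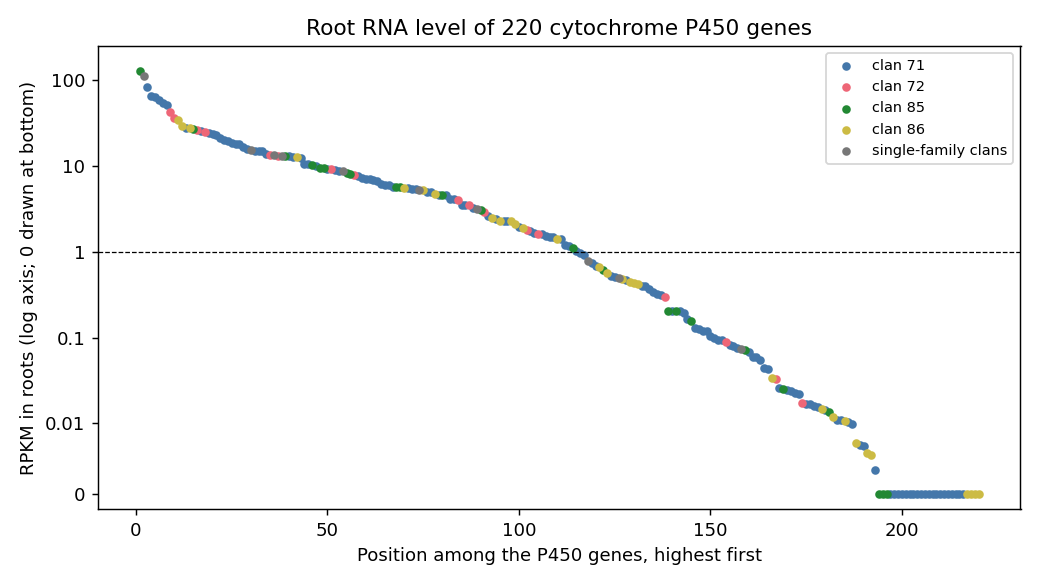
RPKM of the 220 P450 genes in 14-day-old roots on a log axis, ordered from highest to lowest and coloured by clan; genes listed at 0 are drawn at the bottom and the dashed line marks 1 RPKM. Levels fall without a step from 129 RPKM past 1 RPKM, which 115 genes exceed, and 27 genes are at 0.

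The highest of the 220 P450 genes was CYP716A2 at 129 RPKM. Higher values stood outside the 220, up to 304 RPKM among the 19 left-out CYP names and 429 RPKM for CYP73A5, a left-out gene listed as ATC4H. CYP716A2 belongs to a family of triterpene oxidases. CYP51G1, which removes a methyl group from sterol precursors and is needed for all plant sterols, followed at 111.5 RPKM. CYP83A1, which oxidises aldoximes on the way to methionine-derived glucosinolates, was listed at 83.7 RPKM. CYP71B6, which acts on indole-3-acetonitrile, had 65.5 RPKM, and CYP71A12, which makes that nitrile from an aldoxime, had 64.4 RPKM. The ratio of CYP71B6 to CYP71A12 was 1.02 (95% interval 0.993 to 1.04), so these neighbours in the order did not differ beyond counting error. The next 5 genes were CYP82F1 (58.5), CYP78A8 (54.8), CYP71B37 (51.5), CYP72A15 (42.8) and CYP72A13 (36.6). Of the 24 steps between neighbours among the 25 highest genes, 9 were within counting error. They included the run from CYP71B7 (27.9) through CYP94B1 (27.4), CYP702A5 (26.6), CYP72A14 (26.1) and CYP81F3 (25.6) to CYP72A7 (25.1), in which no neighbours could be separated. CYP81D4 (18.3) closed the list of 25.

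The cysteine that binds the haem iron sits in a signature of 10 residues near the end of the protein, in which phenylalanine, glycine, arginine, the cysteine and a last glycine are fixed. The reference DNA that encodes it, or the variants of it described below, is printed for the genes ranked 2 to 9 and for 4 others to which the results return, 5′ to 3′ on the coding strand, with the cysteine codon in capitals (TAIR10.1).
CYP51G1 (chr1:3940394-3940423, plus strand): ttcggagggggaaggcacgggTGCcttgga
CYP83A1 (chr4:7990859-7990888, minus strand): ttcgggtcaggccggagaatgTGCccggga
CYP71B6 (chr2:10283392-10283421, plus strand): tttgggagtggacgcagaggtTGTcccgca
CYP71A12 (chr2:13099657-13099686, minus strand): ttcggatcagggagaaggattTGTccaggg
CYP71A13 (chr2:13110080-13110109, minus strand): ttcggatcagggagaaggataTGCcccggg
CYP82F1 (chr2:10709440-10709469, minus strand): tttgggttgggacgaaggtcaTGCcccgca
CYP78A8 (chr1:83219-83248, minus strand): ttcgggtcgggtaagagggttTGCcctgga
CYP71B37 (chr3:9647050-9647079, minus strand): tttggaagtggtaggagaatgTGTcctgcc
CYP72A15 (chr3:4939128-4939157, plus strand): tttgcgtggggaccgaggataTGCataggc
CYP86A2 (chr4:162470-162499, plus strand): tttaacgccggacctaggatcTGTctagga
CYP710A2 (chr2:14536051-14536080, minus strand): tttggatggggtgcacaccaaTGCgtaggc
CYP707A1 (chr4:10523211-10523240, plus strand): tttggcaatggaacccactcgTGTcctgga

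Among the 220 genes the full signature was encoded by 167, of which 90 were above 1 RPKM. In the 27217 protein-coding genes outside the CYP names the same pattern was found in 17 (0.0625%), 15 of them annotated as P450 proteins. In 21 P450 genes the last residue is alanine in place of glycine, as in CYP71B6, CYP71B37 and CYP82F1, whose printed stretches end in gca or gcc, and 12 of these were above 1 RPKM. In 10 genes histidine takes the place of the arginine: CYP51G1, CYP88A3, the 4 CYP707A genes and the 4 CYP710A genes. In the stretches of CYP51G1, CYP707A1 and CYP710A2 it is the codon cac, with a single codon between it and the capitals. All of these act on sterols or hormones, and 6 of the 10 were above 1 RPKM.

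None of these 3 patterns was found in the annotated proteins of 10 genes, and among them were CYP716A2, the highest of the 220, and CYP71A27 (24.0 RPKM). CYP716A2 (AT5G36140, chromosome 5, 14212174 to 14213293, minus strand) is annotated with 318 residues, while the median protein of the 208 genes has 506.5. The gene AT5G36130 lies 2251 bp away on the same strand, from 14209088 to 14209922. It is annotated as a P450 superfamily protein of 140 residues, and it carries the signature that CYP716A2 lacks.
AT5G36130 (chr5:14209449-14209478, minus strand): tttggaggaggatccaggataTGTccaggg
AT5G36130 was listed at 205 RPKM and has no CYP name in the table, so it is not among the 220 genes. Whether both annotated genes belong to a single transcript was not tested. CYP716A1, the other gene of the family, was listed at 8.03 RPKM with the full signature.

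Genes with a known place in a pathway were then read by role. In gibberellin metabolism CYP88A3, an ent-kaurenoic acid oxidase, was at 4.60 RPKM. The deactivating enzymes CYP714A1 and CYP714A2 were at 7.74 and 4.05 RPKM, and CYP72A9, which hydroxylates gibberellins, at 0.0885 RPKM. The CYP707A genes encode the hydroxylases that break down abscisic acid, and they fell on both sides of 1 RPKM. CYP707A1 was at 12.9 and CYP707A3 at 5.71 RPKM, while CYP707A2 was at 0.156 and CYP707A4 at 0.0251 RPKM. For brassinosteroids, CYP85A2 and CYP85A1, which carry out the last oxidations, were at 9.53 and 1.09 RPKM, and CYP90D1, which acts before them, at 5.66 RPKM.

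Cytokinin hydroxylases make trans-zeatin type hormones, and both were above 1 RPKM, CYP735A2 at 2.93 and CYP735A1 at 1.63. CYP711A1 (MAX1), which oxidises the strigolactone precursor carlactone, was at 13.5 RPKM. It overlaps an annotated gene on the other strand, whose reads cannot be kept apart if strand was not used in counting. The 3 enzymes that oxidise jasmonoyl-isoleucine were all above 1 RPKM. CYP94B1 was highest at 27.4, followed by CYP94B3 at 4.75 and CYP94C1 at 2.30 RPKM. Of the 17 hormone-related genes read here, 14 were above 1 RPKM. The share was 52.3% over all P450 genes followed here, 56.0% over all listed genes and 68.4% over protein-coding genes. The hormone list held 22 genes, and those not counted are listed under other symbols. It was chosen with earlier results of these data known, so whether hormone-related genes differ from other genes was not tested.

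**Figure D2:**
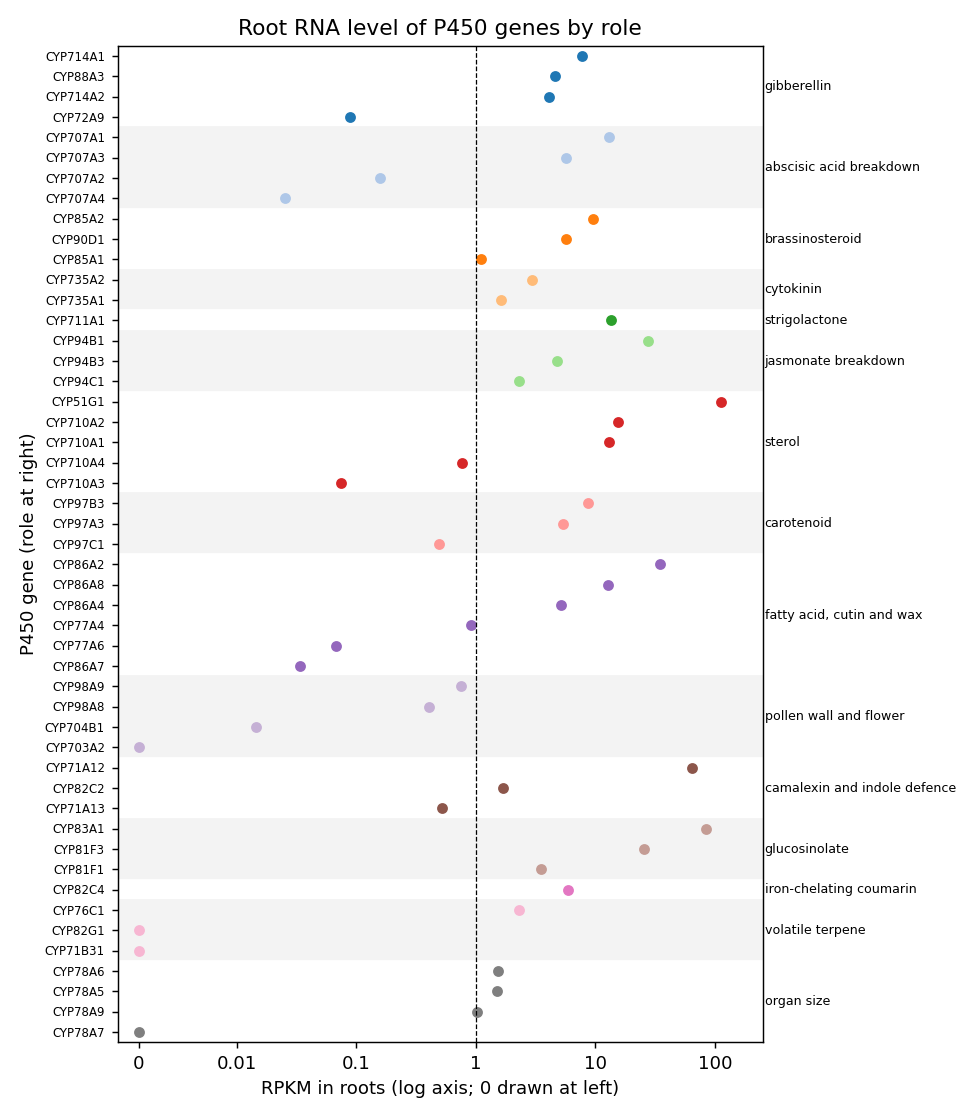
RPKM in 14-day-old roots of P450 genes with a known role, on a log axis, grouped by role at the right; each point is a gene, genes listed at 0 are drawn at the left, and the dashed line marks 1 RPKM. Sterol genes run from CYP51G1 at 111.5 to CYP710A3 at 0.0739 RPKM, and no gene of the pollen wall and flower group reaches 1 RPKM.

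In the sterol pathway CYP51G1 stood far above the CYP710A genes, which introduce the double bond of stigmasterol. CYP710A2 and CYP710A1 were at 15.5 and 12.9 RPKM, and CYP710A4 and CYP710A3 at 0.771 and 0.0739 RPKM. The carotenoid hydroxylases CYP97B3, CYP97A3 and CYP97C1 were at 8.65, 5.31 and 0.493 RPKM. For surface lipids, the fatty acid hydroxylases CYP86A2, CYP86A8 and CYP86A4 were at 34.5, 12.7 and 5.18 RPKM, and CYP86A7 at 0.0334 RPKM. CYP77A4, which forms epoxides of fatty acids, was at 0.905 RPKM, and CYP77A6, which acts in flower cutin, at 0.0679 RPKM.

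The enzymes of pollen and flowers were low. CYP703A2, a hydroxylase of the pollen wall, was listed at 0, and CYP704B1, which also acts in sporopollenin synthesis, was at 0.0145 RPKM, about 3 reads. CYP98A8 and CYP98A9, which make phenolic amides of pollen, were at 0.402 and 0.743 RPKM. Among enzymes of volatile terpenes, CYP82G1 and CYP71B31 were listed at 0 and CYP76C1, a linalool oxidase, was at 2.30 RPKM. The CYP78A genes that influence organ size were at 1.52 (CYP78A6), 1.51 (CYP78A5) and 1.02 RPKM (CYP78A9), with CYP78A7 at 0, whereas CYP78A8 of the same family was at 54.8 RPKM.

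Defence and nutrition enzymes included some of the highest values. Beside CYP71A12, the camalexin enzyme CYP71A13 was at 0.517 RPKM, and CYP82C2, which hydroxylates indole carbonyl nitrile, at 1.67 RPKM. In glucosinolate metabolism CYP83A1 was followed by CYP81F3 and CYP81F1, which modify the indole ring, at 25.6 and 3.49 RPKM. CYP82C4, which makes the iron-mobilising coumarin sideretin, was at 5.93 RPKM.

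P450 enzymes depend on redox partners, and 8 of the 10 genes searched for were matched in the table, all above 1 RPKM. The share was 56.0% over all listed genes and 68.4% over protein-coding genes. This list too was chosen with earlier results of these data known, so no difference was tested. The P450 reductases ATR1 and ATR2 were at 35.3 and 31.7 RPKM. Of the cytochrome b5 genes, which can pass on an electron, CB5-A was at 29.7, CB5-D at 253 and CB5-E at 436 RPKM, and the cytochrome b5 reductase CBR1 was at 211 RPKM. The membrane steroid binding proteins MSBP1 and MSBP2, which tether P450s of lignin synthesis, were at 99.6 and 105 RPKM. In RPKM, 5 of these 8 genes were above CYP83A1.

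The genes fall in 39 families, of which 15 have 5 or more genes and hold 176 of the 220. The family counts below stand beside shares above 1 RPKM of 52.3% over the 220 genes, 56.0% over all listed genes and 68.4% over protein-coding genes. The left-out genes include members of CYP71, CYP79, CYP81, CYP86, CYP705 and several smaller families. Counts for these families cover only the genes followed here. Among these 15 families, medians ran from 19.0 RPKM in CYP72 to 0 in CYP79. In CYP72, 6 of 8 genes were above 1 RPKM, from CYP72A9 at 0.0885 to CYP72A15 at 42.8, and the family held 8.71% of the summed RPKM of all 220 genes. In CYP81, 10 of 14 genes were above 1 RPKM, with a median of 7.90 and a range from CYP81D7 at 0.0103 to CYP81F3 at 25.6. CYP705, a family known mainly from the mustard family and from gene clusters for triterpenes, had 17 of 25 genes above 1 RPKM and a median of 5.50. Its highest gene was CYP705A8 at 23.1, and CYP705A32 and CYP705A14P were listed at 0.

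CYP94, the family of the jasmonate enzymes, was the only family of 5 or more genes with every gene above 1 RPKM. Its 6 genes ran from CYP94C1 at 2.30 to CYP94B1 at 27.4. CYP89 had 5 of 6 genes above 1 RPKM, and its lowest, CYP89A3, was at 0.0790. In CYP706, 4 of 7 genes were above 1 RPKM, from CYP706A3 at 0.0247 to CYP706A7 at 6.17. In CYP82 and CYP78 a single gene stood apart, CYP82F1 at 58.5 against a family median of 1.67 and CYP78A8 at 54.8 against 1.26.

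CYP71, the largest family, has 51 genes here, of which 17 were above 1 RPKM and 9 were listed at 0. Its median was 0.164 RPKM. It nevertheless held 21.0% of the summed RPKM, with 10 of its genes above 10 RPKM, and CYP71B6, CYP71A12 and CYP71B37 were above 50. Its subfamilies were alike in share, with 5 of 15 CYP71A genes and 12 of 36 CYP71B genes above 1 RPKM.

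In other families of 5 or more genes 50% of the genes or fewer were above 1 RPKM. CYP96, to which the wax enzyme MAH1 belongs, had 2 of 13 genes above 1 RPKM, a median of 0.0120 and a maximum of 2.11 (CYP96A14P), and CYP96A2, CYP96A3 and CYP96A5 were listed at 0. CYP76, a family of monoterpenol oxidases, had 3 of 9 above 1 RPKM, and CYP76G1 was highest at 3.51. In CYP702, 3 of 8 were above 1 RPKM, with CYP702A5 at 26.6 and CYP702A8 at 0. In CYP86, 4 of 8 were above 1 RPKM, from CYP86C1 at 0 to CYP86A2. CYP86A1 and CYP86B1 are among the genes left out, so this count does not describe the whole family. In CYP77, 2 of 5 were above 1 RPKM, and the highest was CYP77A5P at 10.1.

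CYP79 enzymes start glucosinolate synthesis from amino acids. None of its 5 genes here was above 1 RPKM, with CYP79A4P highest at 0.126 and 3 at 0, but the members best known for glucosinolates are among the genes left out, so these values do not describe the family as a whole. By clan, 69 of 140 genes of clan 71 were above 1 RPKM (49.3%), 13 of 17 of clan 72 (76.5%), 13 of 23 of clan 85 (56.5%) and 13 of 30 of clan 86 (43.3%). The genes of the single-family clans CYP51, CYP97, CYP710 and CYP711 were above 1 RPKM in 7 of 10 cases. The share was 52.3% over the 220 genes, 56.0% over all listed genes and 68.4% over protein-coding genes. Clan 72 is small here, and 8 of its 17 genes are CYP72A genes of a single array. Whether clans differ in level was not tested. The clans also differ in gene structure: protein-coding genes of clans 71 and 86 have a median of 2 and 1 coding exons, and those of clans 72 and 85 of 5 and 7.

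**Figure D3:**
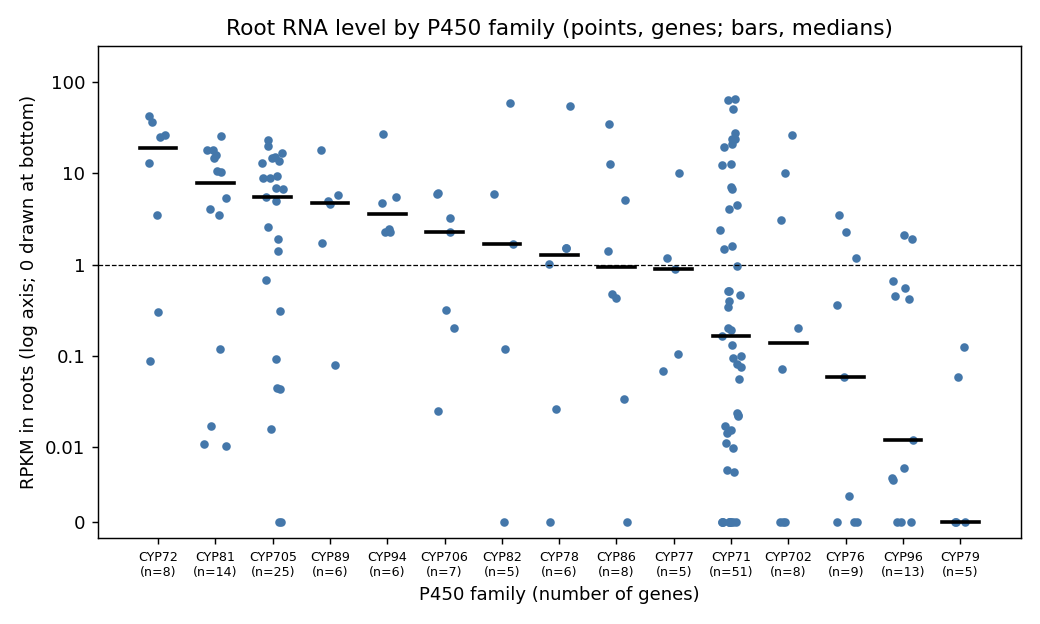
RPKM in 14-day-old roots of the genes in the 15 P450 families with 5 or more genes, on a log axis, ordered by median; points are genes, bars are family medians, genes at 0 are drawn at the bottom, and the dashed line marks 1 RPKM. Medians run from 19.0 in CYP72 to 0 in CYP79, and every CYP94 gene lies above 1 RPKM.

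Many P450 genes stand beside each other on the chromosomes. With neighbours no more than 20 kb apart joined, 143 of the 220 genes formed 38 arrays. Genes in arrays and genes outside them had much the same levels: 51.7% of the 143 and 53.2% of the other 77 were above 1 RPKM, with medians of 1.42 and 1.41. Of the 38 arrays 20 had genes on both sides of 1 RPKM, as did 8 of the 9 arrays with 5 or more genes. With 52.3% of all 220 genes above 1 RPKM, most groups of 5 or more would do so wherever their genes lie. These counts therefore describe the arrays and do not set them apart.

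The array with the most genes lies on chromosome 3 from 9551812 to 9599988 and holds 11 genes, 10 of them CYP71B. Only CYP86C2 (1.42) and CYP71B23 (23.6) were above 1 RPKM, and CYP71B23 held 87.3% of the summed RPKM of the array. A short way along, from 9627562 to 9648658, 8 further CYP71B genes varied as widely. In chromosomal order they were CYP71B25 at 0, CYP71B4 at 0.00985, CYP71B26 at 21.0, CYP71B33 at 0.0225, CYP71B34 at 12.8, CYP71B35 at 1.61, CYP71B36 at 0.0168 and CYP71B37 at 51.5 RPKM. High and low genes were thus direct neighbours in both arrays.

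The 8 CYP72A genes from 4912324 to 4939871 on chromosome 3 are all those of the family listed here. The inner genes CYP72A9 (0.0885) and CYP72A10 (0.301) were low between CYP72A7 (25.1) and CYP72A8 (3.47) on one side and CYP72A11 (13.0), CYP72A13 (36.6), CYP72A14 (26.1) and CYP72A15 (42.8) on the other. Among 10 CYP705A genes from 7007113 to 7030897 on the same chromosome, CYP705A18 to CYP705A22 were all above 5 RPKM and peaked at CYP705A19 (19.9). The pseudogenes CYP705A14P, CYP705A16 and CYP705A17P beside them were at 0, 0.0160 and 0.0442 RPKM. CYP705A16 overlaps CYP705A15 on the same strand, so its reads cannot be kept apart from that gene and its value does not give its level.

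On chromosome 4 from 17555899 to 17598958, 7 of the 8 CYP81 genes followed here were between 3.49 and 25.6 RPKM. CYP81D2 was at 0.0169 RPKM. The left-out gene CYP81F4 lies in the same stretch and is not counted. The one array of 5 or more genes with no gene above 1 RPKM was that of CYP71A21 to CYP71A26 on chromosome 3 from 17876571 to 17892847. Its highest value was 0.470 RPKM and 2 of its 6 genes were at 0.

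**Figure D4:**
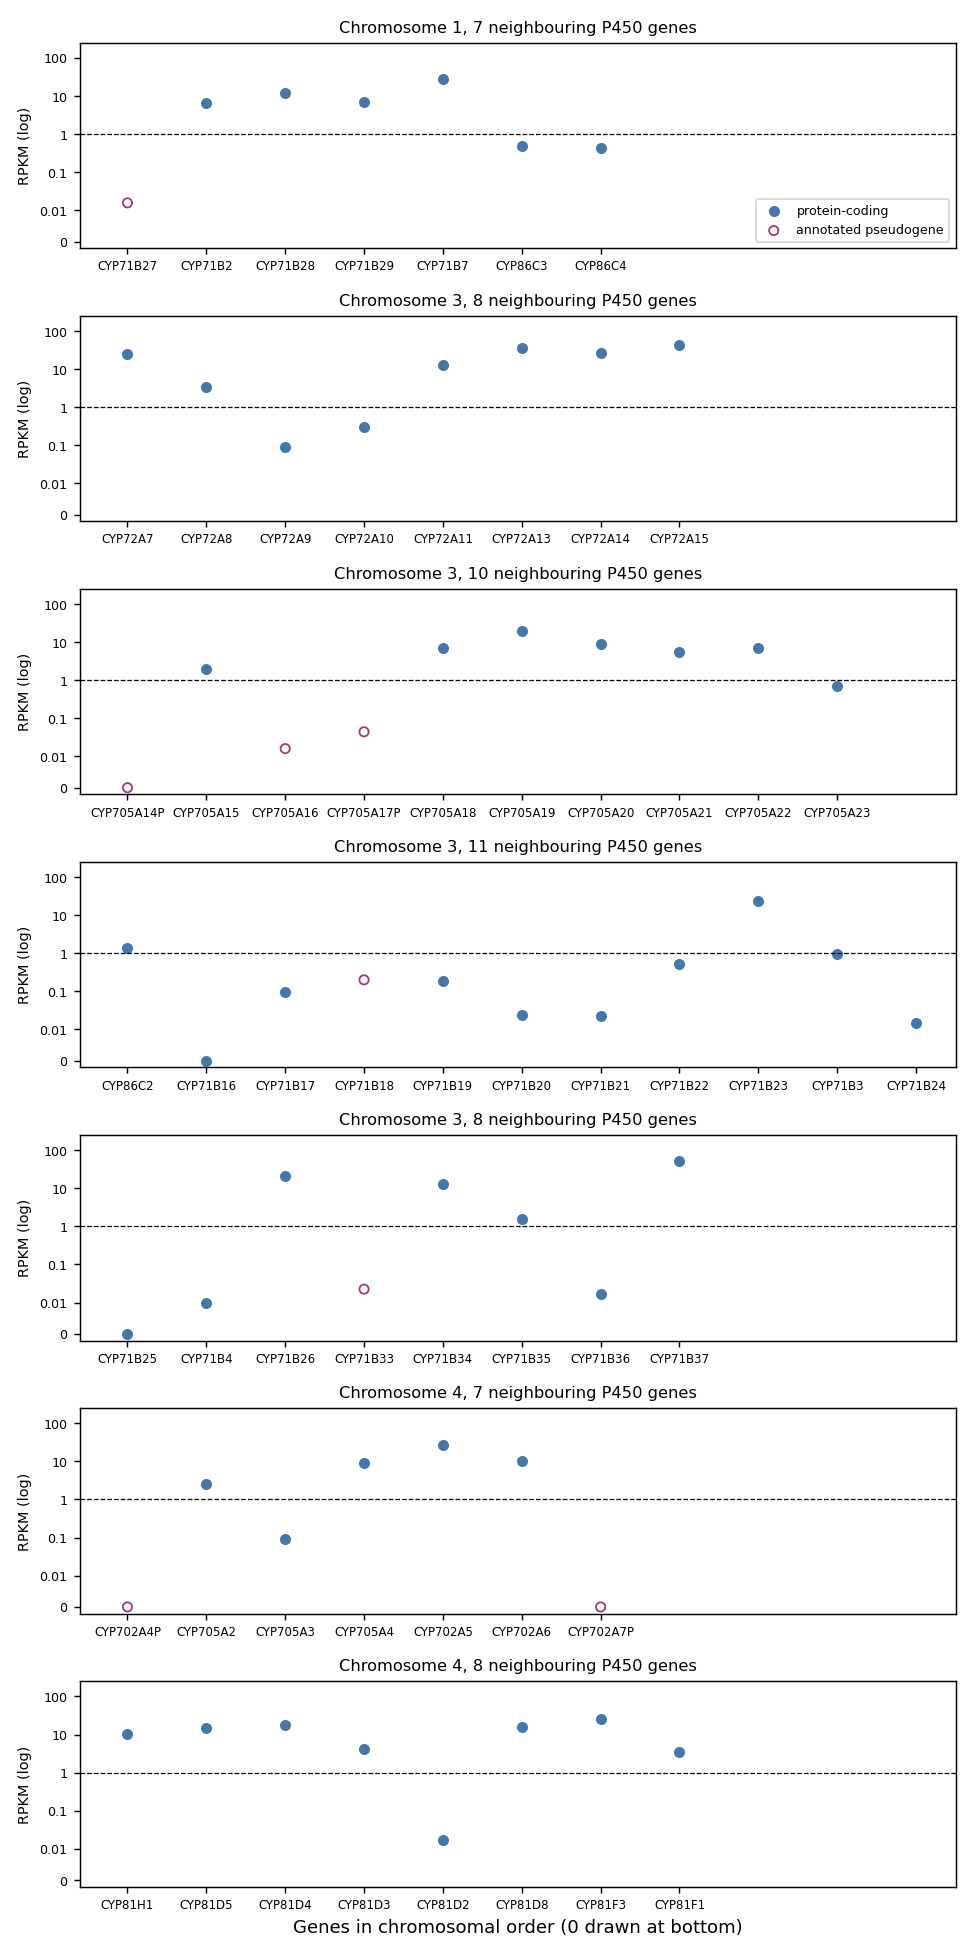
RPKM in 14-day-old roots along the 7 P450 arrays with 7 or more genes, on log axes, with genes in chromosomal order and not to distance; open circles are annotated pseudogenes, genes at 0 are drawn at the bottom, and dashed lines mark 1 RPKM. Each array holds genes on both sides of 1 RPKM, such as CYP71B36 at 0.0168 beside CYP71B37 at 51.5.

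Close relatives ranged from near equal to far apart in level. Of 1718 pairs of genes within a family, 27 shared at least 85% of their residues. They involve 45 genes, and 23 of the pairs are within 20 kb. In 13 of the 27 the higher gene had more than 10 times the RPKM of the lower, in 5 the ratio was 2 or less, and the median ratio was 8.06, with genes at 0 set to 3 reads. These counts are not given over all 1718 pairs, so whether close relatives differ more or less than other pairs was not tested.

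CYP71A12 and CYP71A13, with 89.3% identical residues and 8.54 kb between them, were at 64.4 and 0.517 RPKM, a ratio of 124 (95% counting interval 102 to 155). Their printed haem stretches differ at 3 of 30 bases. Fewer than 1% of the 61-base windows of either gene, the length of a read, occur elsewhere in the genome, so reads of this pair can be told apart from each other. CYP71A13 overlaps an annotated gene on the other strand, whose reads cannot be kept apart if strand was not used. CYP71A19 and CYP71A20 (89.4% identity) were at 19.6 and 0.0814 RPKM, a ratio of 240 (156 to 404), and CYP71A19 has such an overlap too. CYP82C4 and its neighbour CYP82C3 (88.7%) were at 5.93 and 0.118 RPKM, a ratio of 50.1 (33.3 to 79.5). CYP71B37 and CYP71B36 (87.2%) are 691 bp apart and were at 51.5 and 0.0168 RPKM, the latter about 3 reads, with a ratio of 3059 and a wide counting interval of 1108 to 15715. CYP704A2 and CYP704A1 (86.3%) were at 29.0 and 0.0106 RPKM, about 2 reads for the latter, with a ratio of 2741 (812 to 24243), so these 2 ratios cannot be ranked. CYP705A30 was at 14.8 RPKM, at least 925-fold above CYP705A32, whose count of 0 was set to a floor of 3 reads.

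Other pairs were near each other. CYP94D2 and CYP94D1 (88.6%) were at 2.49 and 2.31 RPKM, a ratio of 1.08 (0.949 to 1.23) that was within counting error. CYP72A15 and CYP72A13 (88.3%) differed by a ratio of 1.17 (1.14 to 1.20). CYP706A1 and CYP706A2 share 97.5% of residues and identical haem stretches, and were at 3.27 and 2.30 RPKM. In these genes 44.4% and 57.7% of the 61-base windows occur elsewhere, so the split of reads between them is uncertain. Of the other most alike pairs, CYP71B19 and CYP71B20 were at 0.192 and 0.0239, CYP710A4 and CYP710A3 (93.9%) had a ratio of 10.4 (5.92 to 19.1), and CYP89A5 and CYP89A6 (92.9%) were at 18.0 and 1.73 RPKM. CYP71B11 was 13.3 times (10.5 to 17.2) as high as CYP71B12 (90.9%).

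**Figure D5:**
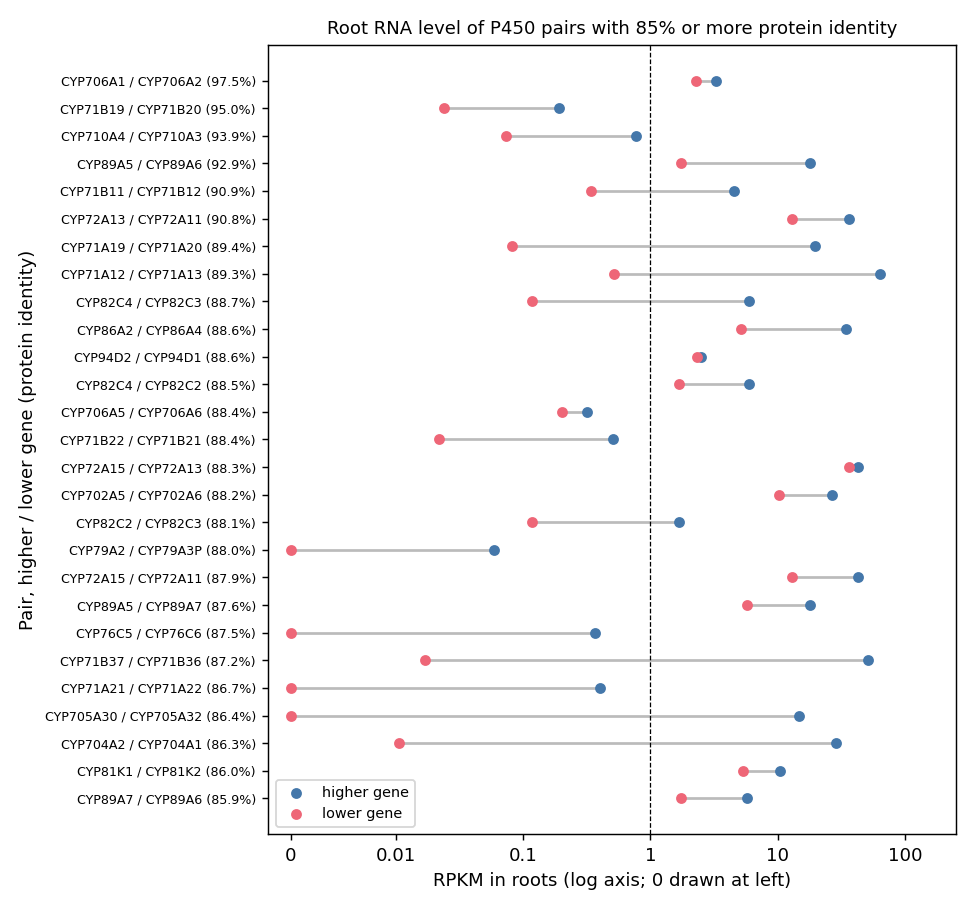
RPKM in 14-day-old roots of both genes in the 27 P450 pairs with at least 85% protein identity, on a log axis, ordered by identity (in brackets); blue points are the higher and red points the lower gene, genes at 0 are drawn at the left, and the dashed line marks 1 RPKM. Distances between the points run from a ratio of 1.08 in CYP94D2 and CYP94D1 to 3059 in CYP71B37 and CYP71B36.

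Repeated sequence was absent from most of the genes and extensive in few. No 61-base window of 163 genes occurs elsewhere in the genome, 14 genes have more than 10% repeated windows, and 2 have more than 50%, CYP706A2 and the pseudogene CYP76C8P. Another annotated gene overlaps 36 of the 220, including CYP71B6, CYP86A2 and CYP704A2 (29.0 RPKM) among the highest, and their reads cannot be kept apart where strand was not used.

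Annotated pseudogenes were read apart. Over all listed genes 56.0% were above 1 RPKM and 21.0% were at 0. Shares over other annotated pseudogenes were not computed, so whether those of the P450 genes differ from them was not tested. Of the 12, only CYP51A1, a relative of CYP51G1, was above 1 RPKM, at 3.16, and 4 were at 0. A further 6 genes carry the P of a pseudogene in their name but are annotated as protein-coding. Of these CYP77A5P (10.1) and CYP96A14P (2.11) were above 1 RPKM and 3 were at 0. The annotated proteins of CYP77A5P and CYP96A14P have 410 and 167 residues and none of the haem patterns.

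Families with few genes here added several well-covered genes. Some are small only here: CYP83 and CYP90 have left-out genes, and CYP90 and CYP88 have genes listed under other symbols. The share above 1 RPKM was 56.0% over all listed genes and 68.4% over protein-coding genes. Of the 11 families with a single gene here, 7 were above 1 RPKM: CYP83A1, CYP721A1 (13.5), CYP711A1, CYP87A2 (8.28), CYP93D1 (7.70), CYP90D1 and CYP88A3. The other 4 were CYP703A2 at 0, CYP724A1 at 0.0134, CYP715A1 at 0.0325 and CYP722A1 at 0.202 RPKM. Both CYP712 genes were above 1 RPKM, CYP712A1 at 7.24 and CYP712A2 at 5.43, while the 3 CYP709B genes ran from CYP709B1 at 0.0171 to CYP709B3 at 9.14 RPKM.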

How the data were processed

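RNA from 14-day-old roots was sequenced as 61-base single-end reads in 3 libraries. The authors deposited RPKM in a single column for the TAIR10 genome, computed with edgeR from HTSeq counts. The aligner is TopHat2 in the paper's methods and STAR in the submitters' processing notes. Software versions, annotation release, use of strand and how the libraries were combined are not given in the sources used here.

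Names were matched to TAIR10.1 (RefSeq), which supplied coordinates, exons and sequences. The depth was estimated from values under 12 reads, and this step was tested on simulated data made of exact whole reads. Shares have 95% Wilson intervals, and ratios and single levels exact binomial and Poisson intervals from estimated reads. Identity is from global alignment (BLOSUM62, gap penalties 11 and 1). Clans follow family numbers. Python 3.11.15, numpy 2.4.6, pandas 2.3.3, scipy 1.17.1, matplotlib 3.10.9 and Biopython 1.88 were used.

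Named were the 25 highest genes, the highest and lowest of each family of 5 or more (not each gene tied at 0), genes of role and redox lists, the 3 genes on each side of 1 RPKM and the 5 most identical pairs. Marker lists are given by counts. Array members, other pairs, sequence classes and small families were named after their values were seen. Genes and lists were chosen with earlier results of these data known. Alternatives were thresholds of 0.5 and 2, a TPM scale, other sets of genes, and other family summaries.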

Additional observations from a re-analysis of the deposited data

How the results depend on the processing

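The number of P450 genes above 1 RPKM stayed within 1.5 times of 115 under every alternative run: 125 at a threshold of 0.5, 99 at 2, 122 on the TPM scale, 133 with the left-out genes put back and 114 for protein-coding genes only. The share of 52.3% became 45.0% at a threshold of 2, outside its interval. The median of 1.41 became 2.32 on the TPM scale, which multiplies every value by 1.64, and 2.30 without genes at 0. The share of the 10 highest genes, 41.3%, became 46.1% with the left-out genes put back and 41.4% for protein-coding genes only. Family levels depended on the summary: of 45 alternatives 19 were within 1.5 times of the family median and 26 were not. Means against medians were 6.96 and 0.164 RPKM in CYP71, 5.02 and 0.138 in CYP702, 0.472 and 0.0120 in CYP96, 13.2 and 1.67 in CYP82, and 9.81 and 1.26 in CYP78. The geometric mean (pseudocount 0.1) was 0.612 RPKM in CYP71. No paired analysis was possible because the 3 libraries share a single column, and leaving out each library could not be run for the same reason. The spread between libraries is therefore unknown, and values of a few reads carry little weight.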

Other observations

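Several P450 genes appear in the table under other symbols and so stand outside the 220 genes. The gibberellin enzymes GA3 (CYP701A3) and KAO2 (CYP88A4) were listed at 14.3 and 2.14 RPKM. The brassinosteroid enzyme ROT3 (CYP90C1) was at 20.9 RPKM, and the inactivating enzymes BAS1 (CYP734A1) and SOB7 (CYP72C1) at 9.07 and 10.6 RPKM. PAD3 (CYP71B15), which completes camalexin, was at 11.6 RPKM, and MAH1 (CYP96A15), which oxidises stem wax alkanes, at 0.0175 RPKM.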
